A study of Rattus norvegicus with 9 samples.

Results

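Transcripts of 10 heat shock protein genes were described in the retinas of diabetic and control rats: Hspb1 of the small heat shock proteins, Hspa1b, Hspa2, Hspa5 and Hspa8 of the HSP70 family, Hsph1 of the related HSP110 family, Hsp90aa1 and Hsp90ab1 of the HSP90 family, the mitochondrial chaperonin Hspd1 and the co-chaperone Dnajb1. The genes were chosen by symbol and with earlier results of these arrays in view, and the values that chose them were the differences between diabetic and control retinas. Those differences are therefore given for these 10 genes as a description with no test. Of the 10 genes, 9 had a probe under their symbol, with 10 probes in all, out of 12978 genes named on the array. Hspd1 was not analysed here because no probe carried its symbol in the annotation used. A probe was detected, that is above the negative control beads at a detection p under 0.05 on every array of at least 1 group, for 6 of the 9 genes and for 7197 of all named genes.

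The diabetic group (STZ) was made up of 4 male Sprague-Dawley rats that had received 65 mg/kg streptozotocin, a toxin of the insulin-producing beta cells of the pancreas, by intraperitoneal injection. The control group consisted of 5 male Sprague-Dawley rats given the citrate vehicle alone. Retinas were taken 3 months after injection, so the model is diabetes from chemical loss of beta cells, and an age of the animals is not given in the sources used here. RNA of 1 rat was hybridised to each array, and 1 further diabetic array had been removed by the authors in quality control.

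Heat shock proteins are chaperones that bind unfolded or newly made proteins and keep them from aggregating. Small heat shock proteins hold such clients without using ATP, the HSP70 proteins bind and release them in an ATP cycle that J-domain proteins such as Dnajb1 start and exchange factors end, and HSP90 proteins with their co-chaperones mature kinases and hormone receptors. Under heat or other protein stress, heat shock factors bind heat shock elements in the promoters of many of these genes, while Hspa5 responds to unfolded protein in the endoplasmic reticulum through its own promoter element. In the retina, small heat shock proteins are known from Müller glia and ganglion cells, and several of them are also abundant in the lens.

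The promoters of these genes hold their elements in different arrangements, and the stretches that carry them are shown to set the members apart by the kind of element. Promoters were taken from RefSeq on the rat genome GRCr8 as the 250 bases before to 50 bases after each gene's start, and 8 of the 10 genes were found there, without Hsp90aa1 and Hspa1b. Capitals mark the matched element in each stretch, read 5′ to 3′ along the gene's strand, and only bases before the start are shown.
Hspb1 (chr12:26432383-26432450, minus strand): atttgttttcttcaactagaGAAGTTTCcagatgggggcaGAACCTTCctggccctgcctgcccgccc
Hspa2 (chr6:100864358-100864405, plus strand): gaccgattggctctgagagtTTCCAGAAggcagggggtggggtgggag
Hspa8, far element (chr8:50080281-50080333, plus strand): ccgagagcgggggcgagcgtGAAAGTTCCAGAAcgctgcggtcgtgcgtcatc
Hspa8, near element (chr8:50080439-50080491, plus strand): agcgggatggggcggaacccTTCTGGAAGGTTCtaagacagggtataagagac
Dnajb1 (chr19:41431142-41431172, minus strand): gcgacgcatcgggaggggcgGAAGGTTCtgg
Hspa5 (chr3:38452953-38453011, plus strand): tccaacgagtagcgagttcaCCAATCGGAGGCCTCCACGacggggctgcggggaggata

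A heat shock element of 3 units, searched as GAANNTTCNNGAA on both strands, was found in the windows of Hspa8, Hspd1 and Hsph1, and in 0.798% of all 33469 promoters of the table. The shorter element of 2 units, searched as GAANNTTC or TTCNNGAA, lies within the longer one and was found in 6 of the 8 windows and in 15.9% of all promoters. Hspb1 had 2 such short elements, Hspa2 had 1 and Dnajb1 had 2, of which the one at 18 to 25 bases after the start is not shown. The endoplasmic reticulum stress element, searched as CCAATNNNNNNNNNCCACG on both strands, was found in Hspa5 alone among these genes and in 0.0657% of all promoters. No searched element was found in the window of Hsp90ab1. A match is a description of these letters in this window and not of a factor that binds there.

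The labelled tissue was checked against its markers, and all 8 rod photoreceptor genes with a probe were detected on every array, with a mean log2 intensity over the list of 11.99 to 12.18 in diabetic and 12.27 to 12.40 in control retinas. Prph2 and Sag, of the outer segment disc and of rod signalling, were the brightest, at 14.20 ± 0.03 and 13.98 ± 0.12 in diabetic retinas and 14.25 ± 0.02 and 14.07 ± 0.07 in control retinas (SD, n = 4 and 5). Median deposited intensities of the arrays were 76.9 to 87.9 in diabetic and 70.0 to 84.4 in control retinas, and 11207 to 11609 probes in diabetic and 10843 to 11524 in control retinas were detected. Controls 1 to 3 were on BeadChip 1, and all diabetic retinas were on BeadChip 2 with controls 4 and 5. All levels below are log2 intensities after background correction and quantile normalization, on which detected probes run from 7.04 to 14.37. Levels compare retinas within a gene and not genes with each other, since each probe binds with its own strength.

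Hspb1 had the largest difference among the 6 detected genes and was far brighter in every diabetic retina. Hspb1 (Hsp25 in rodents) encodes a small heat shock protein that binds unfolded proteins and actin filaments. Its log2 intensity was 12.48, 11.72, 12.70 and 10.72 in diabetic retinas 1 to 4. In control retinas 1 to 5 it was 8.01, 8.89, 7.69, 7.75 and 7.68. The groups did not overlap, with diabetic retina 4 the lowest of its group and control 2 the highest of its own. On the deposited linear scale these were 6584, 3328, 7872 and 1757 in diabetic retinas, against 334, 478, 234, 311 and 259 in control retinas. The mean was 11.91 ± 0.89 in diabetic and 8.00 ± 0.51 in control retinas (SD, n = 4 and 5), a difference of 3.90 on the log2 scale (standard error 0.42) or 14.9-fold. It was the 4th largest rise among the 10261 probes in the fit. Between the arrays of BeadChip 2 alone the difference was 4.19, and the 2 control retinas of that BeadChip lay 0.48 below the 3 of BeadChip 1. In bulk tissue, more cells of a type and more RNA per cell cannot be told apart.

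Hspa2 was also higher in every diabetic retina, by much less. Hspa2 is an HSP70 protein best known from male germ cells. Its log2 intensity was 8.05, 8.27, 8.38 and 8.35 in diabetic retinas 1 to 4, against 7.65, 7.66, 7.74, 7.71 and 7.69 in control retinas 1 to 5. The groups did not overlap, and the control retinas lay within 0.1 of each other on this scale. These levels are near its low end, where the background correction narrows differences. On the deposited linear scale they were 435, 395, 493 and 425 in diabetic retinas, against 244, 204, 244, 299 and 260 in control retinas. The mean was 8.26 ± 0.15 in diabetic and 7.69 ± 0.04 in control retinas (SD, n = 4 and 5), a difference of 0.57 (standard error 0.06) or 1.49-fold. Between the arrays of BeadChip 2 alone the difference was 0.57, and over all arrays without background correction it was 0.67.

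**Figure D1:**
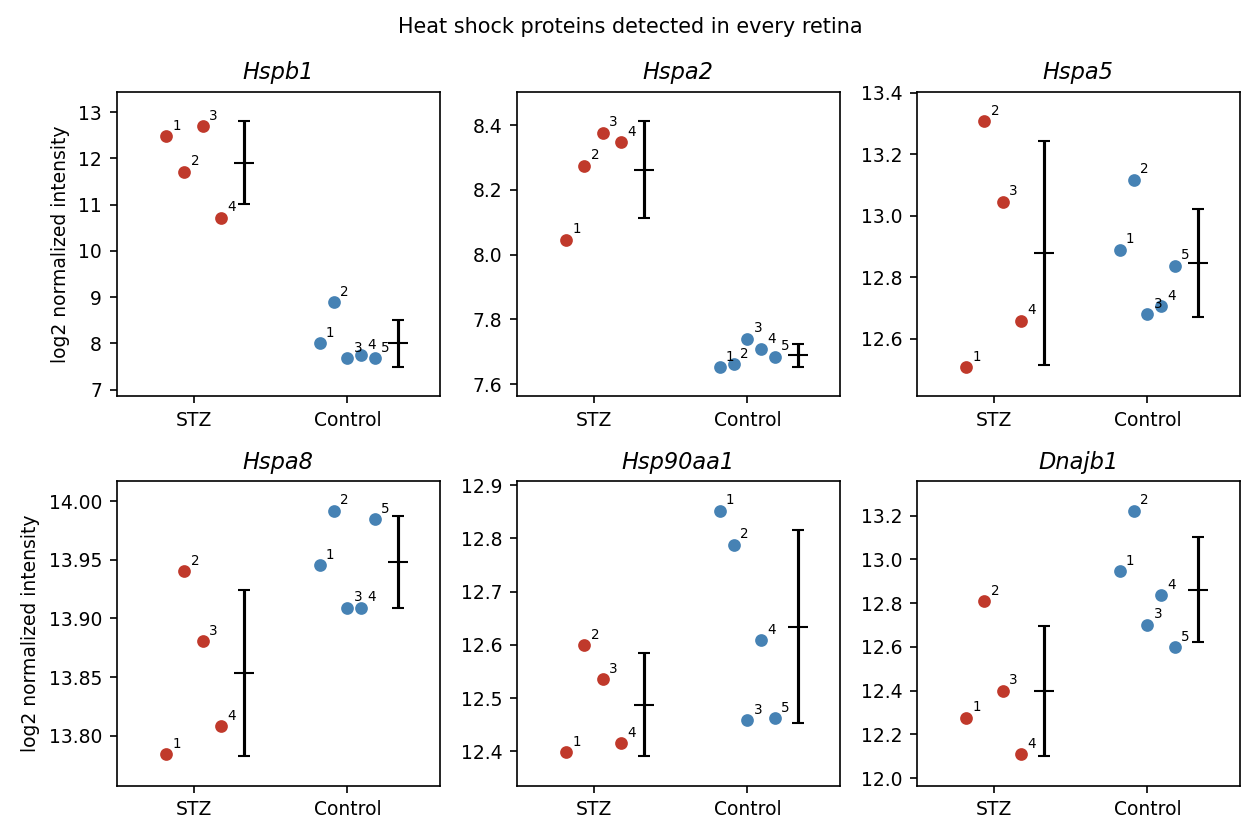
Log2 normalized intensity of the 6 heat shock protein genes detected in every retina, with the 4 STZ retinas left and the 5 Control retinas right of each panel. Points are single retinas with their number, bars are mean ± SD, and each panel has its own axis, which does not start at 0; the groups are apart for Hspb1 and Hspa2 and overlap in the other 4 panels.

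The J-domain protein Dnajb1 (Hsp40), which delivers clients to HSP70 and is itself induced by heat shock factor, was on average lower in diabetic retinas, with overlap. Its log2 intensity was 12.28, 12.81, 12.40 and 12.11 in diabetic retinas 1 to 4 and 12.95, 13.22, 12.70, 12.84 and 12.60 in control retinas 1 to 5. Diabetic retinas 1, 3 and 4 lay below all controls, and diabetic retina 2 lay among them. The mean was 12.40 ± 0.30 in diabetic and 12.86 ± 0.24 in control retinas (SD, n = 4 and 5), a difference of -0.46 (standard error 0.16), or 1.38-fold lower. On BeadChip 2 alone it was -0.32, and the controls of that BeadChip lay 0.24 below those of BeadChip 1.

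The constitutive cytosolic chaperone Hspa8 differed little. Hspa8 (Hsc70), the HSP70 protein made in all cells, had 13.78, 13.94, 13.88 and 13.81 in diabetic retinas, against 13.95, 13.99, 13.91, 13.91 and 13.98 in control retinas. Diabetic retinas 1, 3 and 4 lay below every control, and diabetic retina 2 overlapped with them. The difference was -0.09 (standard error 0.04), and it was -0.02 when arrays were scaled to their medians in place of quantile normalization. Its levels are close to the brightest value of any probe, 14.37.

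Hsp90aa1, the stress-inducible HSP90 protein of the cytosol, had 12.40, 12.60, 12.54 and 12.42 in diabetic retinas, against 12.85, 12.79, 12.46, 12.61 and 12.46 in control retinas. The groups overlapped, and the difference of -0.15 had a standard error of 0.09. Controls 1 and 2, both of BeadChip 1, were above all other retinas, and on BeadChip 2 alone the difference was -0.05. Without control 1 it was -0.09.

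Hspa5 (BiP, Grp78), the HSP70 protein of the endoplasmic reticulum and a marker of its stress response, differed between the groups by less than its spread within them. Its log2 intensity was 12.51, 13.31, 13.05 and 12.66 in diabetic retinas, against 12.89, 13.12, 12.68, 12.71 and 12.84 in control retinas. Diabetic retina 1 was the lowest and diabetic retina 2 the highest of all 9 retinas, so that the diabetic range enclosed that of the controls. The difference was 0.03 (standard error 0.17), with an SD of 0.36 in diabetic and 0.18 in control retinas, and it was 0.16 without diabetic retina 1 and -0.11 without diabetic retina 2.

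The 3 other genes with a probe were not well above background, and no fold is given for them. Hspa1b (Hsp72), the stress-inducible HSP70 protein that differs hardly at all in sequence from its copy Hspa1a, had deposited intensities of 50.5 to 66.0 in diabetic and 51.6 to 72.5 in control retinas, and its detection p was above 0.05 on all 9 arrays, with a lowest value of 0.176. Hsph1 (Hsp105), which exchanges the nucleotide of HSP70, had intensities of 50.5 to 61.0 in diabetic and 43.1 to 68.6 in control retinas and a lowest detection p of 0.154. The first probe of Hsp90ab1, the constitutive HSP90 protein of the cytosol, was detected in 1 of 4 diabetic and 1 of 5 control retinas, at intensities of 63.1 to 85.5 and 64.0 to 81.4. Its second probe was detected in none, at 51.2 to 70.9 in diabetic and 52.4 to 60.5 in control retinas. Apart from the first Hsp90ab1 probe in diabetic retina 3 and control 2, these probes did not pass the detection p of 0.05, which does not say that the transcripts were missing.

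Counted together, 2 of the 6 detected genes (Hspb1 and Hspa2) passed an adjusted p of 0.05 in limma's fit over all probes, both higher in diabetic retinas, where 9.32% of all 10261 probes passed, 4.84% as higher and 4.47% as lower. Of these 956 probes 52.0% were higher, and of the 77 that passed with median scaling of the arrays 87.0% were. The groups did not overlap for the same 2 of 6 genes and for 13.0% of all probes. With the thresholds named in the study's methods, an unadjusted p under 0.05 and a 1.2-fold difference, 3 of 6 passed (Dnajb1 in addition), against 10.0% of all probes. Because the genes were selected on this contrast, nothing is read from these counts. The median difference was -0.03 over the 6 genes and -0.01 over all probes.

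For the 4 bright chaperones the same retinas were mostly at the top of each group, while the lower places differed. Diabetic retina 2 was the highest of its group for Dnajb1, Hspa5, Hsp90aa1 and Hspa8, and diabetic retina 3 was second for all 4 of them. Among controls, retina 2 was the highest for Dnajb1, Hspa5 and Hspa8 and second to retina 1 for Hsp90aa1. The deviations of diabetic retina 2 from its group mean were 0.41 for Dnajb1, 0.43 for Hspa5, 0.11 for Hsp90aa1 and 0.09 for Hspa8, and those of control 2 were 0.36, 0.27, 0.15 and 0.04. Hspb1 and Hspa2 did not have diabetic retina 2 at the top: diabetic retina 3 was the highest for both. These orders rest on 4 and 5 retinas and were seen in the data, with no test.

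**Figure D2:**
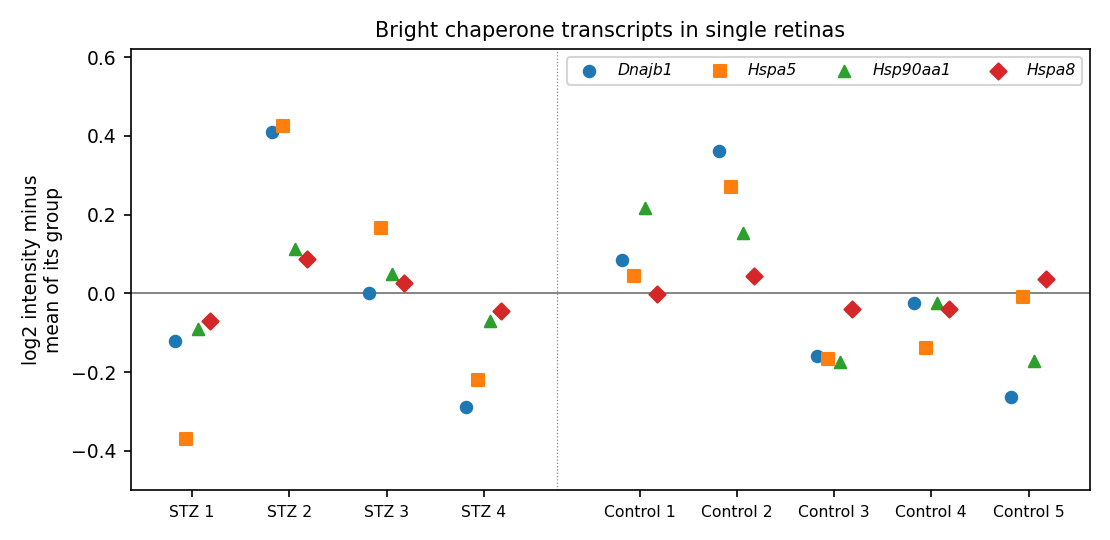
Log2 intensity minus the mean of the retina's own group for Dnajb1, Hspa5, Hsp90aa1 and Hspa8, with STZ retinas left of the dotted line and Control retinas right of it. All 4 genes are above their group mean in STZ 2 and in Control 2, and below it in STZ 1 and STZ 4.

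Other chaperone genes were taken from lists of 123 genes of the same machinery, of which 97 had a probe and 79 were detected. In limma's fit, adjusted over all probes, 1 of the 79 passed as higher in diabetic retinas and 1 as lower. This was 2.53% in all beside the 9.32% of all probes. An unadjusted p under 0.05 was reached by 12 of the 79, beside 2592 of all 10261 probes. Their median difference was -0.02, with 32 genes above 0 and 47 below. Over all probes the median was -0.01, and 42.2% of them were above 0.

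Hsf4 was the gene that rose. It encodes a heat shock factor known mainly from the lens, where it is needed for crystallin expression in mice. Its log2 intensity was 8.33, 7.62, 8.06 and 7.70 in diabetic retinas 1 to 4 and 7.32, 7.41, 7.29, 7.24 and 7.26 in control retinas 1 to 5. The groups did not overlap, and diabetic retinas 1 and 3, the brightest for Hsf4, were also the brightest for Hspb1. The difference was 0.62 (standard error 0.13, limma adjusted p = 0.0253), and its adjusted p ranged from 0.0014 to 0.285 over 19 alternatives, passing in 8 of them. On BeadChip 2 alone the difference was 0.68 and did not pass. Its size depended on the processing, since Hsf4 is dim. The difference was 1.08 without background correction and also 1.08 with the authors' processed values, and it passed in both. The call was lost without diabetic retina 3 and without controls 1, 3, 4 or 5, at differences of 0.58 to 0.63. Of the other genes on that list, Hsf2, a factor active in development, differed by -0.17 (adjusted p = 0.475), and by -0.07, -0.11 and -0.26 without diabetic retina 1, 2 or 3. No probe carried the symbol of Hsf1, the main factor of the stress response.

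Cct6a, a subunit of the CCT chaperonin that folds actin and tubulin, was the gene that fell. Its log2 intensity was 11.79, 11.76, 11.87 and 11.66 in diabetic retinas, against 12.09, 11.97, 11.97, 11.88 and 11.96 in control retinas. Diabetic retina 3 came within 0.02 of control 4, without overlap. The difference was -0.21 (standard error 0.05, limma adjusted p = 0.0413), with an adjusted p of 0.0387 to 0.725 over 19 alternatives and the call kept in 3. On BeadChip 2 alone the difference was -0.16 and did not pass. Leaving out any 1 retina other than diabetic retina 3 ended the call, at differences of -0.23 to -0.17. The subunit Cct3 had a difference of -0.23 (adjusted p = 0.0527). The 11 genes of chaperonin and prefoldin had a median of -0.04, with 7 below 0, where 42.2% of all probes were above 0.

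The other small heat shock proteins that were detected did not pass the test. Hspb8, which works with Bag3 in autophagy of damaged proteins, had 8.01, 8.12, 8.92 and 7.93 in diabetic retinas, against 7.77, 8.08, 7.70, 7.72 and 7.74 in control retinas. Diabetic retina 3 stood above the other 8 retinas, as it did for Hspb1, and the difference of 0.44 did not pass (adjusted p = 0.201) and was 0.22 without that retina. Hspb6, known from muscle, had 10.93, 10.95, 10.55 and 10.95 in diabetic retinas, against 11.07, 11.33, 11.10, 11.08 and 11.17 in control retinas, a difference of -0.30 without overlap that did not pass (adjusted p = 0.0803). Cryab, an alpha crystallin and small heat shock protein of lens and glia, had a mean of 14.03 ± 0.06 in diabetic and 14.08 ± 0.03 in control retinas (SD, n = 4 and 5), near the top of the array's range, with a difference of -0.05 (adjusted p = 0.416), or -0.08 without diabetic retina 2. No probe carried the symbol of its partner Cryaa. Of the 7 other small heat shock proteins, 6 had a probe and 3 were detected.

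HSP90 co-chaperones lay mostly below 0, in 7 of the 8 detected, with a median of -0.09, where 42.2% of all probes were above 0. Chordc1, a co-chaperone that binds HSP90 through its CHORD domains, differed by -0.38 (adjusted p = 0.165), and Unc45a, which helps fold myosin, by -0.11 without overlap (adjusted p = 0.0877). Stip1 (Hop), the adaptor between HSP70 and HSP90, was chosen after its values were seen. It had 10.01, 10.55, 9.65 and 9.34 in diabetic retinas, against 10.50, 10.79, 10.09, 10.25 and 10.08 in control retinas, with diabetic retina 2 and control 2 again the highest of their groups. Its difference of -0.46 had a standard error of 0.25 and did not pass (adjusted p = 0.297).

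Of the other HSP70 and HSP110 proteins, 4 were detected, with a median of -0.08. Hspa14, an HSP70 protein of the ribosome, differed by -0.14 without overlap (adjusted p = 0.0756), and Hspa4l, of the HSP110 group, differed by -0.19 (adjusted p = 0.295). The 26 detected J-domain proteins had a median of -0.02 and a range of -0.28 to 0.19. Of these, Dnajc15 of mitochondria differed by -0.13 (adjusted p = 0.185) and Dnajb4, the closest relatives of which include Dnajb1, by 0.10 (adjusted p = 0.233). Exchange factors and regulators of HSP70 had a median of 0.06 over 6 genes, with Bag1 at 0.20 (adjusted p = 0.263) and Bag5 at -0.15 (adjusted p = 0.402). Without diabetic retina 3 the difference was 0.13 for Bag1 and 0.06 for Dnajb4, and without diabetic retina 1 it was -0.05 for Bag5 and -0.11 for Hspa4l.

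The 14 detected endoplasmic reticulum chaperones went both ways, with 8 below and 6 above 0, a range of -0.34 to 0.21 and a median of -0.04. Herpud1, which serves the degradation of proteins of the reticulum, differed by -0.34 (adjusted p = 0.118), and its adjusted p was 0.0459 without diabetic retina 2. Dnajc3, an inhibitor of the kinase PERK and a J-domain partner of Hspa5, differed by 0.21 (adjusted p = 0.19), with diabetic retina 2 at 10.05 and all other retinas from 9.47 to 9.70, and by 0.10 without that retina. The 4 mitochondrial chaperones had a median of 0.03, with Grpel1, an exchange factor of the mitochondrial HSP70, at 0.08 (adjusted p = 0.472) and the protease Lonp1 at 0.10 (adjusted p = 0.481). Without diabetic retina 1 these were 0.04 and 0.16, and without control 1 they were 0.04 and 0.07.

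**Figure D3:**
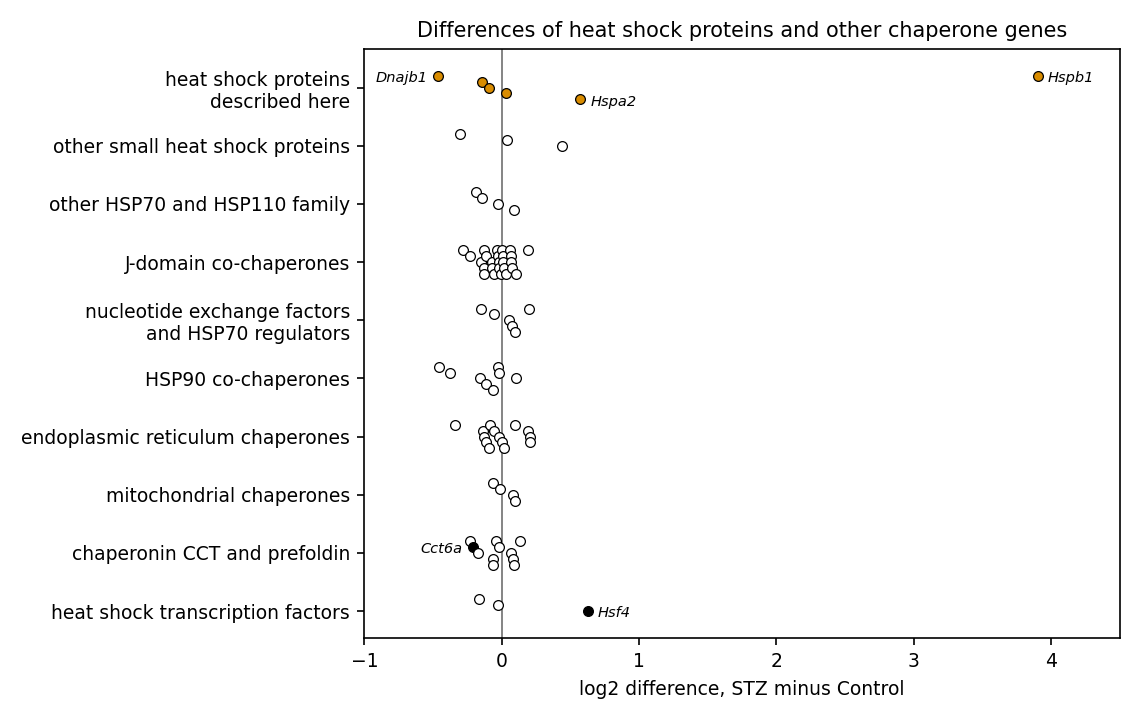
Log2 difference, STZ minus Control, of the 6 detected heat shock protein genes described here (orange) and of 79 other chaperone genes by list. Filled black points passed an adjusted p of 0.05 (Hsf4 at 0.62, Cct6a at -0.21), open points did not, and the vertical spread within a list only separates points; Hspb1 at 3.90 stands alone on the axis.

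Markers of lens cells were on average higher in diabetic retinas, as Hspb1 was. Of the 20 listed lens genes 13 had a probe and 12 were detected, and 9 of the 12 passed as higher in diabetic retinas, with a median difference of 3.04 (limma). The mean log2 intensity of the list was 13.15, 12.49, 12.92 and 12.29 in diabetic retinas 1 to 4, against 9.77, 10.65, 9.89, 10.06 and 9.59 in control retinas 1 to 5. By this mean diabetic retinas 1 and 3 were the highest and 4 the lowest, and control 2 was the highest control, as for Hspb1. For Hspb1, though, diabetic retina 3 was above 1, and controls 1, 3 and 4 came in another order. Not every gene of the list had the order of the mean. Crygb was highest in diabetic retina 4, and control 4 was the highest control for Crygb, Crygd and Cryge. The summed intensity was 101688 to 137981 in diabetic and 44016 to 54736 in control retinas. The brightest genes of the list, Cryba2 and Cryba1, lay at the top of the range in both groups, with differences of -0.10 and -0.09, and Mip, the water channel of lens fibres, overlapped at 8.80 to 12.45 in diabetic and 7.48 to 10.99 in control retinas. Foxe3, of the lens epithelium, was not detected.

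Markers of reactive glia were on average also higher in diabetic retinas. Of 9 detected genes of that list, 7 passed as higher (limma), with a median of 1.16, and no probe carried the symbol Gfap. The mean log2 intensity of the list was 9.15, 9.76, 9.72 and 9.72 in diabetic retinas 1 to 4, against 8.18, 8.24, 8.21, 8.18 and 8.64 in control retinas 1 to 5. Here diabetic retina 1 was the lowest of its group and control 5 the highest control. For Hspb1 these places were held by diabetic retina 4 and control 2. Orders of so few retinas were not tested, for this list or for the lens list. Summed intensities were 9486 to 16652 in diabetic and 4290 to 6447 in control retinas. Its brightest genes, the protease inhibitor A2m and the copper oxidase Cp, differed by 1.16 and 1.92. Of 5 detected Müller glia genes 2 passed as higher, the brightest ones, Vim and Clu, with differences of 0.64 and 0.52, while Slc1a3, Aqp4 and Rlbp1 did not pass, at 0.28, 0.03 and -0.29. Microglia genes passed as higher in 2 of 7 and ganglion cell genes as lower in 5 of 10. Of the 8 rod genes, all had differences below 0, with a median of -0.21, and 2 passed as lower, Nrl at -0.59 and Rcvrn at -0.24. The part of these cells in the levels of Hspb1, Hspa2 and Hsf4 was not tested.

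**Figure D4:**
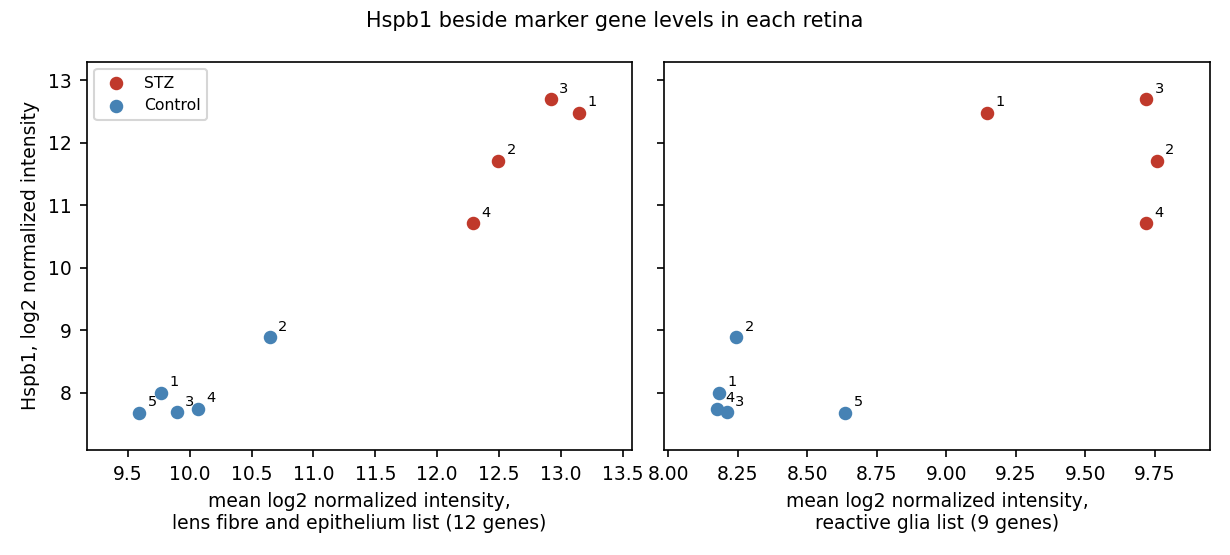
Log2 normalized intensity of Hspb1 in each retina against the mean log2 normalized intensity of the 12 detected lens genes (left panel) and of the 9 detected reactive glia genes (right panel). Points are single STZ (red) and Control (blue) retinas with their number; in both panels the groups are apart on both axes, and STZ 1, at 12.48 for Hspb1, is the highest STZ retina for the lens list and the lowest for the glia list.

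Profiles over the 9 retinas were compared with those of all named detected genes by the root mean square distance of log2 intensities, each centred on its own mean. The genes most like Hspb1 were S100a6, a calcium-binding protein, at a distance of 0.495, Bfsp1, a lens filament protein, at 0.516, Cryge, a gamma crystallin, at 0.535, Lgsn, a lens fibre protein, at 0.575, and Lgals3, a galectin, at 0.670. S100a6 had 11.37, 10.94, 11.83 and 10.55 in diabetic retinas, against 8.10, 8.75, 8.17, 7.68 and 7.75 in control retinas, with diabetic retina 3 and control 2 the highest of their groups, as for Hspb1. Those most like Hspa2 were Ing2, a reader of histone marks, at 0.0753, Gbp2, a guanylate-binding protein induced by interferon, at 0.0803, B2m, the light chain of MHC class I, at 0.0998, Plxnd1, a semaphorin receptor, at 0.104, and Pabpc4, a poly(A)-binding protein, at 0.110. B2m had 12.52, 12.63, 12.95 and 12.71 in diabetic retinas, against 12.16, 11.96, 12.06, 12.15 and 12.25 in control retinas. These distances include the difference between the groups, so any gene with a difference of like size comes near, and they are given with no test.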

How the data were processed

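RNA of 4 diabetic and 5 control rat retinas was measured on RatRef-12 BeadChips (Illumina). GenomeStudio 1.0.6 gave the mean bead intensity of each of 22226 probes, which the authors deposited on a linear scale without normalization, with a detection p-value against negative control beads. Their processed intensities, also deposited, served as an alternative. Columns of fold and p in the study's supplement were not used.

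R 4.3.3 (limma 3.58.1) and Python 3.11.15 (matplotlib 3.10.9) were used. The background was corrected by normexp (offset 16, negative controls inferred by limma from the detection p), and values were then quantile normalized and put on the log2 scale. Background correction with this offset shrinks differences of dim probes. That of Hsf4 was 0.62 here, 1.08 without background correction and 0.53 with an offset of 50. A probe entered the fit if it was detected (p under 0.05) throughout at least 1 group, which left 10261 probes. Groups were compared per probe by lmFit and eBayes, two-sided, with Benjamini-Hochberg adjustment over these probes and a threshold of 0.05. P-values set the group difference against the variance between arrays of different rats, which eBayes moderates across probes. That variance can also hold differences between BeadChips, and the number of arrays limits the precision. The fit was tested on simulated data. No 2 arrays held identical values. The t-test of the study's methods (1.2-fold, p under 0.05 without adjustment) was an alternative.

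The members, the gene lists and the alternatives were chosen with earlier results of these data known. Named genes are every member with every probe, each chaperone gene past the threshold and otherwise the 2 with the smallest p of each list, the alpha crystallins, the 2 brightest genes of each marker list (printed for rods, lens, reactive and Müller glia) and the 5 genes nearest in profile to the 2 members with the largest difference. Outside these rules, Stip1, Mip, Foxe3, Slc1a3, Aqp4, Rlbp1, Nrl and Rcvrn were named with their values in view. A gene with several probes is given by its brightest detected probe. In the platform annotation 13192 probes have 1 gene symbol, and 9034 have none and are not named. Of the 9 members with a probe, the gene identifiers of 8 are in the RefSeq annotation of GRCr8, without that of Hspa1b, which shares nearly all of its sequence with Hspa1a. Marker lists of vessels, pigment epithelium, erythroid cells and eye muscle held no gene past the threshold in limma.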

Additional observations from a re-analysis of the deposited data

Results flagged for a closer look

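Among 76 groups of retinas checked for a single retina far from the rest (Dixon's criterion at 95%), 7 had one, where chance alone gives about 5% of such groups. For Hspb1, control 2 stood above the other controls at a log2 intensity of 8.889, with the next at 8.006. For Hspb6, diabetic retina 3 stood below the other diabetic retinas at 10.55, with the next at 10.93. For Hspb8, control 2 stood above the other controls at 8.08, with the next at 7.765. For Hspa14, control 1 stood above the other controls at 11.41, with the next at 11.30. For Lonp1, diabetic retina 1 stood below the other diabetic retinas at 8.983, with the next at 9.206. The mean of the reactive glia list was low in diabetic retina 1, at 9.145 with the next at 9.717, and high in control 5, at 8.637 with the next among controls at 8.245.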

How the results depend on the processing

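The log2 differences of Hspb1 (3.59 to 4.30), Hspa2 (0.50 to 0.67) and Dnajb1 (-0.60 to -0.32) kept their sign over 18 alternatives. Not all of these are separate checks, since another or no detection filter leaves each difference as it is. The BeadChip block gives the same difference as BeadChip 2 alone, and the replicate block the same as leaving out control 5. The difference of Hspa8 was -0.02 with median scaling, and that of Hspa5 ran from -0.11 to 0.16. Over all probes 956 passed the threshold, and in fits of their own 77 passed with median scaling (87.0% of them higher, beside 52.0%), 575 with no detection filter (60.9% higher), 179 with the BeadChip as a block (70.4% higher), 11 within BeadChip 2 (72.7% higher) and 535 with the methods' t-test after adjustment, and 471 to 1018 when 1 retina was left out. Without control 1, 3, 4 or 5 or diabetic retina 3 the count was 625, 536, 471, 612 or 499. Of the 6 heat shock protein genes 2 to 3 passed when 1 retina was left out, with Dnajb1 added without diabetic retina 2. Within BeadChip 2, 0 of the 6 passed. There an unadjusted p under 0.05 (limma) was reached by 2 of the 6 and by 1526 of all 10261 probes. Because the 6 genes were selected on this contrast, nothing is read from their counts or from the signs they kept. The 2 of 79 other chaperone genes became 1 without background correction and with the authors' processed values. They became 0 with median scaling, no detection filter, the BeadChip as a block, within BeadChip 2 and with the methods' t-test. In these settings 8, 12, 5, 4 and 8 had an unadjusted p under 0.05, beside 1101, 3325, 1741, 1526 and 2503 of all probes. These fits held 10261 probes, or 22226 with no detection filter. When 1 retina was left out, 0 to 3 of the chaperone genes passed. The causes were not tested. Deviations of samples with the same replicate number correlated at -0.08 to 0.16. Diabetic retina 2 alone correlated best with the control of its own number. These few correlations cannot decide whether the numbers pair the samples. With a replicate block 246 of all probes (61.0% higher) and 0 of the other chaperone genes passed. At an unadjusted p under 0.05 (limma) these were 2231 and 15. Thresholds of the methods passed 1030 probes in limma and 960 in the t-test. Neither probe of Hsp90ab1 passed the detection filter, so no difference was fitted for either. Group and BeadChip are partly confounded, and probes at background limit what can be said of Hspa1b, Hsph1 and Hsp90ab1.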
